A study of Mus musculus with 18 samples.

Results

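The genes described here are the proteasome subunits, proteasome activators, the proteasome inhibitor Psmf1 and the dedicated assembly chaperones of the mouse. They were chosen by name alone, as the gene symbols made of Psma, Psmb, Psmc, Psmd, Psme, Psmf or Psmg and a number, without Psmb8, Psmb9 and Psmb10, the interferon-inducible immune subunits, which are given separately. The rule found 45 of the 55270 genes listed. RNA came from the substantia nigra of 18 mice, 6 in each group. Intact mice were of the genotype WT, and no treatment is named for them. AAV-GFP mice are labelled as overexpressing green fluorescent protein from an adeno-associated virus (AAV), and AAV-SIRT3 mice as overexpressing SIRT3, a deacetylase of the mitochondrial matrix, from such a virus. All were 3 months old, about 1 month after the virus where one was given. The labels do not give the promoter, the cells that the virus reached or the sex of the mice. AAV-GFP is the matched control for the virus, and intact mice differ from AAV-SIRT3 mice in the virus, its delivery and the transgene together.

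The proteasome is the large protease that degrades proteins tagged with ubiquitin. Its 20S core is a barrel of outer alpha rings, which gate the entrance, and inner beta rings, which hold the proteolytic sites. The 19S regulatory particle caps the barrel: a ring of ATPases unfolds the substrate and opens the gate, and the non-ATPase subunits bind ubiquitin chains and cut them off. Separate activators can take the place of the 19S particle, and chaperones that are absent from the finished enzyme guide assembly. In neurons proteasome activity limits the build-up of misfolded proteins, and loss of proteasome function has long been studied in nigral degeneration.

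Promoters are shown for 6 of the genes that rose together in the AAV-SIRT3 and intact comparison and that hold a searched motif. The windows are the 250 bases before a RefSeq start (GRCm38.p6), written 5′ to 3′ on the strand of the gene, with motif matches in capitals. The motifs, searched on both strands, were TGACNNNGC, the core of the antioxidant response element that Nfe2l1 and Nfe2l2 bind, CCGGAAG, the ETS core, and CCAAT, the NF-Y core, and no pair of matches overlapped in the windows shown.
Psmb3 chr11:97703184-97703433 (+ strand): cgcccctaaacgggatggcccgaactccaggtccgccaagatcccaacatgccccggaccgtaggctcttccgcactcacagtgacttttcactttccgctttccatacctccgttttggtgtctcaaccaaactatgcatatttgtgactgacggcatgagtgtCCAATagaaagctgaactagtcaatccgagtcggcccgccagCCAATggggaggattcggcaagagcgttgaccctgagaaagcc
Psmb5 chr14:54617996-54618245 (- strand): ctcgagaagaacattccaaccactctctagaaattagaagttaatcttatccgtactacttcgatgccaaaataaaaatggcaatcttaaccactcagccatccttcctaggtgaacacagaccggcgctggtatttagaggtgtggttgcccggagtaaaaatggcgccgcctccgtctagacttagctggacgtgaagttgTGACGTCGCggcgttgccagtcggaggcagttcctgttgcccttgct
Psmb6 chr11:70525107-70525356 (+ strand): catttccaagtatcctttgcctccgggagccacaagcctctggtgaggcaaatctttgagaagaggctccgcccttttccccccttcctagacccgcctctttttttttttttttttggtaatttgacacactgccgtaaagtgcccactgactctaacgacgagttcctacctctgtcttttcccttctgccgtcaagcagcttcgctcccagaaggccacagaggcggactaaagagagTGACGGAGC
Psmc1 chr12:100109952-100110201 (+ strand): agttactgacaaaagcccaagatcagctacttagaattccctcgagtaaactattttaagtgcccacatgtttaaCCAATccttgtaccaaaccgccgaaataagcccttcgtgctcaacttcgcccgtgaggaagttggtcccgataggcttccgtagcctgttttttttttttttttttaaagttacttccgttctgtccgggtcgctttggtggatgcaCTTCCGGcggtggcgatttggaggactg
Psma6 chr12:55383972-55384221 (+ strand): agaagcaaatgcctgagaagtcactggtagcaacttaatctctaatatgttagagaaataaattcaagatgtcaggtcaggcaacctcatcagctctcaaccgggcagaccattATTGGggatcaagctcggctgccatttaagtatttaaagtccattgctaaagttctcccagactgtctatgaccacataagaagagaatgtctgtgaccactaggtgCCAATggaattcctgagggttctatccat
Psmd10 chrX:140956712-140956961 (- strand): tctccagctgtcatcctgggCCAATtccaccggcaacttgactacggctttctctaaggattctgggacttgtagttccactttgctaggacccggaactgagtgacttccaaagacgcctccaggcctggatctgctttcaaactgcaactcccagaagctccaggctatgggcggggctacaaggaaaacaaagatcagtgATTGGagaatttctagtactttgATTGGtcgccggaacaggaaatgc
In Psmb5 and Psmb6 the TGACNNNGC match begins 47 and 9 bases before the start, on the strand of the gene. Psmb3 holds CCAAT at 85 and 43 bases, and Psmc1 holds CCAAT at 175 bases and a CCGGAAG match on the other strand at 28 bases. Psma6 holds CCAAT on the other strand at 136 bases and on its own at 29, and Psmd10 on its own strand at 230 bases and on the other at 47 and 24. Psma6 has another RefSeq start, whose window holds 1 CCGGAAG match. Promoters were found for 37 of the 45 genes. Of these, 5 (13.5%) held TGACNNNGC, beside 11.5% of 27025 genes, 12 (32.4%) held CCGGAAG, beside 7.83%, and 13 (35.1%) held CCAAT, beside 37.5%. A match is a run of letters and not evidence of binding.

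Libraries held 47182529 to 64728587 reads assigned to genes. Values are normalised reads, the read count of a gene divided by the size factor of its library. The gene carried by the virus was examined first. Sirt3 ran from 1733 to 1919.6 normalised reads in intact libraries (median 1823), 1684 to 1936 in AAV-GFP (1756) and 1801 to 2041 in AAV-SIRT3 (1953), so the AAV-SIRT3 and AAV-GFP ranges overlapped. The difference on the log2(value + 1) scale was 0.13 ± 0.042 (SE, limma adjusted p = 0.183) against AAV-GFP and 0.087 ± 0.042 (SE, limma adjusted p = 0.148) against intact. With the length trend removed the value against intact was -0.0061. Without AAV-GFP replicate 2 the value against AAV-GFP was 0.15 with an adjusted p of 0.039. Whether the delivered transcript is counted under mouse Sirt3 is not given in the sources used here. Dopaminergic markers summed to 47607 to 63132 in intact libraries, 41307 to 52698 in AAV-GFP and 47039 to 55942 in AAV-SIRT3. Of these 10 genes 0 passed the test between AAV-SIRT3 and intact mice, with 0 at an unadjusted p under 0.05 (limma). In AAV-GFP against intact mice 2 were lower, with 8 at an unadjusted p under 0.05 and a median log2 fold change of -0.29. In AAV-SIRT3 against AAV-GFP mice 0 passed, with 5 at an unadjusted p under 0.05 and a median of 0.20. Thalamic markers were higher in AAV-SIRT3 than in intact libraries for 8 of 10 genes and in AAV-GFP than in intact for 1, and their summed level was 50318 to 89772 in intact libraries, 76724 to 87273 in AAV-GFP and 75559.8 to 95241 in AAV-SIRT3. In AAV-GFP against intact mice 4 of the 7 tested anterior pituitary markers were lower (median log2 fold change -2.65). In AAV-SIRT3 against AAV-GFP mice 0 of these 7 were called. Between AAV-SIRT3 and intact mice 4 of the 7 were lower as well (median -2.61), and the list summed to 1427 to 6157 in intact libraries, 930.1 to 1471 in AAV-GFP and 1028 to 1602 in AAV-SIRT3. Choroid plexus markers were lower for 2 of 10 genes, with sums of 25414 to 103245 in intact libraries, 26927 to 92991 in AAV-GFP and 25333 to 26933 in AAV-SIRT3. Endothelial markers were lower for 4 of 10 and higher for 1, with sums of 9557 to 12364 in intact libraries, 10392 to 13031 in AAV-GFP and 8606 to 12299.9 in AAV-SIRT3. Oligodendrocyte markers were higher for 3 of 10 (median 0.096), and reactive astrocyte markers higher for 1 of 10 and lower for 1. In AAV-GFP against intact mice, however, 3 of the 10 reactive astrocyte markers were higher and 0 lower (median log2 fold change 0.69). In AAV-SIRT3 against AAV-GFP mice 2 of the 10 were lower and 0 higher (median -0.74). This list summed to 18591 to 26969 in intact libraries, 24457 to 44660 in AAV-GFP and 19208 to 27257 in AAV-SIRT3. The part of these tissues and cells in the proteasome values was not tested beyond the fit with thalamic markers.

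Most proteasome transcripts were abundant, and their median spread was near that of other genes with high values. On a per-length scale, as the mean over 18 libraries divided by the length of the principal transcript, the highest were Psmc5 (8402 normalised reads per kb) and Psmc1 (6371), ATPases of the 19S particle, and Psmb6 (6727), a catalytic subunit of the core. At the other end were Psmb11 (0.840 normalised reads per kb), the core subunit of the thymic cortex, Psma8 (12.1), the alpha subunit of the testis, and Psmg3 (260.0), an assembly chaperone. Psmb11 reached at most 11.9 normalised reads in any library and did not pass the filter on low values, so 44 of the 45 genes were tested. The median coefficient of variation over the groups was 5.82% for these 44 genes, 10.1% for all tested genes and 6.01% for the 8536 tested genes with a mean of at least 1000.

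Between AAV-SIRT3 and intact mice the proteasome genes moved up together by a small amount. Of the 44 tested genes, 26 rose and 1 fell at an adjusted p under 0.05 (limma), where 11.3% of all tested genes were called higher, 10.3% lower and 21.7% in either direction. The median log2 fold change was 0.17, beside -0.0049 over all tested genes, and 41 of 44 values were positive, against 49.1% of all tested genes. In 15 of 44 genes every AAV-SIRT3 library lay above every intact library, where 5.01% of all tested genes did so, and in 0 genes every AAV-SIRT3 library lay below, against 4.32%. At an unadjusted p under 0.05 there were 35 genes, against 34.9% of all tested genes. The number called was 12 with the trend of each library with transcript length removed, and the median log2 fold change was then 0.082. With thalamic markers as a covariate the number was 10, while the median stayed at 0.17. The called genes were Psma1 to Psma7 and Psmb1 to Psmb6 of the core, Psmc1, Psmc2, Psmc3, Psmc5, Psmd3, Psmd4, Psmd7, Psmd8, Psmd12 and Psmd13 of the 19S particle, Psmd10, Psmg2 and Psmg3 among the chaperones, and Psmd1, which fell. In bulk tissue, a change in the share of cells of a type and a change in RNA per cell cannot be told apart.

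**Figure D1:**
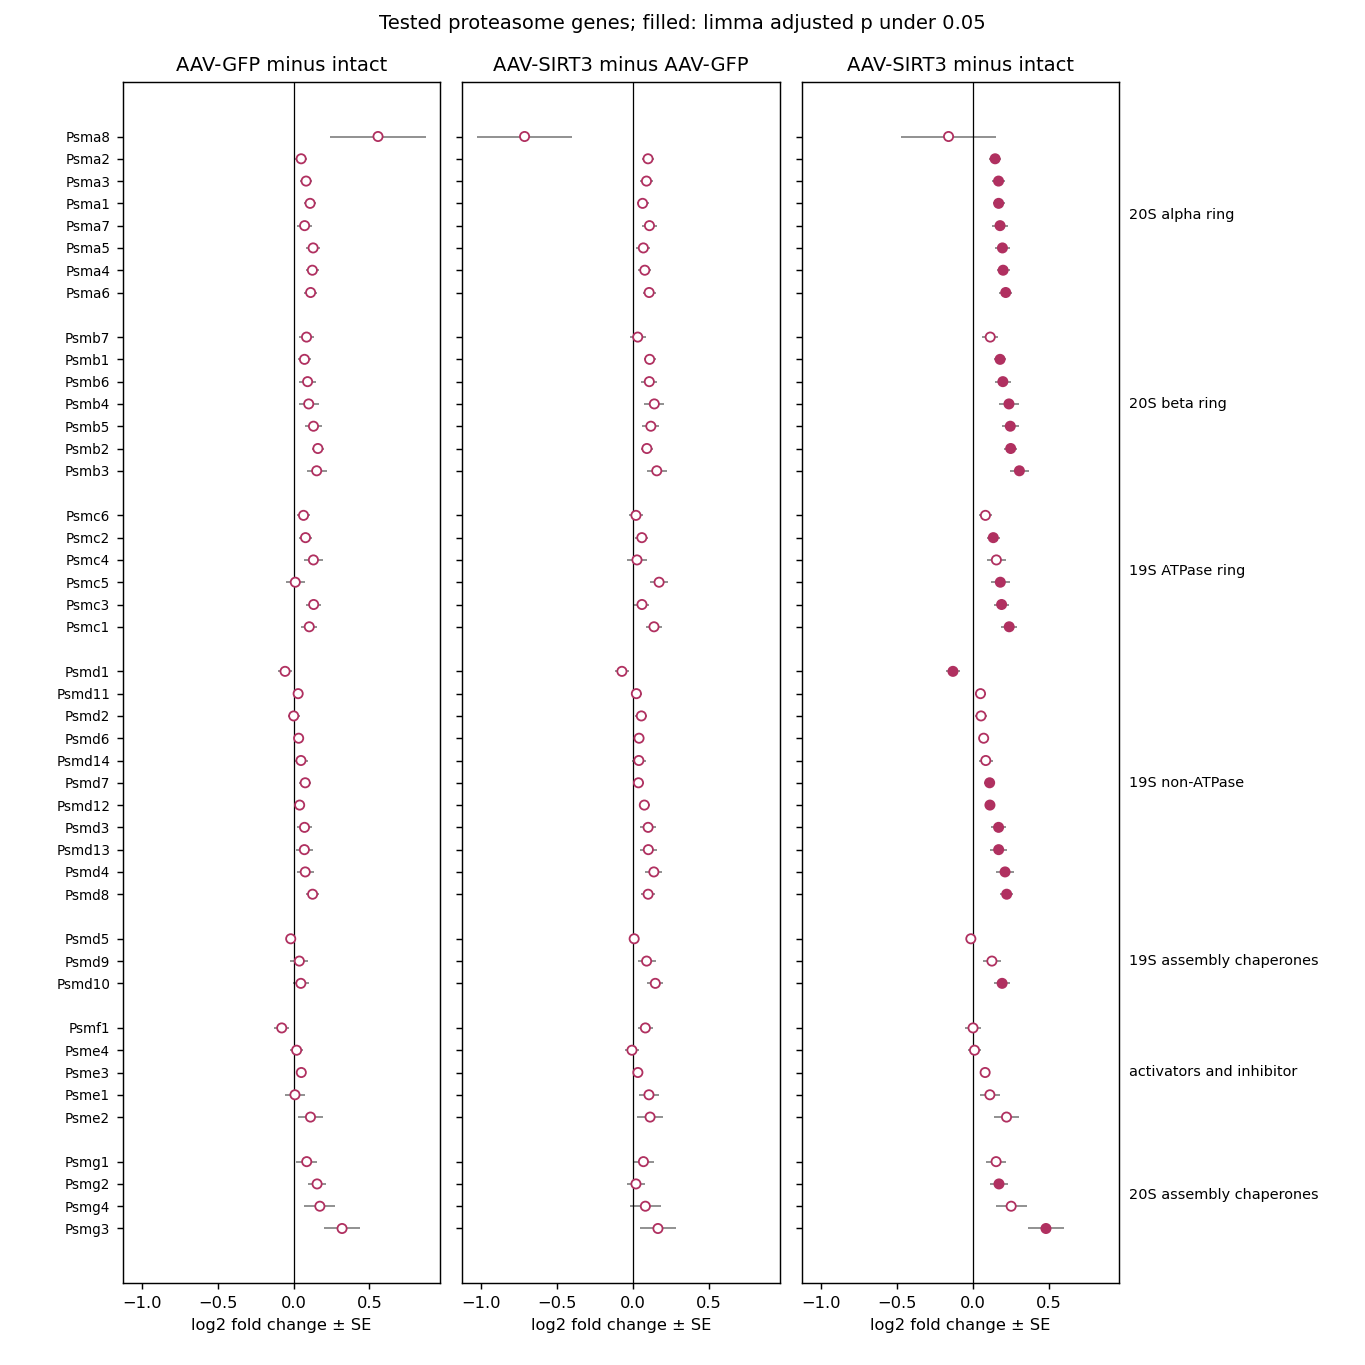
Log2 fold change with its standard error (x axis) of each of the 44 tested genes (y axis, grouped by role) in the 3 comparisons, 6 libraries a group. Filled points passed an adjusted p under 0.05: 0 in AAV-GFP minus intact, 0 in AAV-SIRT3 minus AAV-GFP, and 27 in AAV-SIRT3 minus intact, of which only Psmd1 lies to the left of 0.

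The same pattern was read library by library, as the median over the 44 genes of the log2 value relative to the intact mean. Intact libraries lay between -0.040 and 0.050 (median -0.018), AAV-GFP libraries between -0.0016 and 0.22 (median 0.054), and AAV-SIRT3 libraries between 0.10 and 0.25 (median 0.15). Every AAV-SIRT3 library was above every intact library, and AAV-GFP replicate 2, at 0.22, lay inside the AAV-SIRT3 range, while the next AAV-GFP library was at 0.079. The share of all assigned reads that fell on the 45 genes was 0.332 ± 0.00661% in intact, 0.346 ± 0.0214% for AAV-GFP and 0.360 ± 0.0161% for AAV-SIRT3 mice (SD, n = 6). Without AAV-SIRT3 replicate 6, the highest of its group, 20 genes rose, where 9% of all tested genes were called higher, 0 fell and the median was 0.15.

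**Figure D2:**
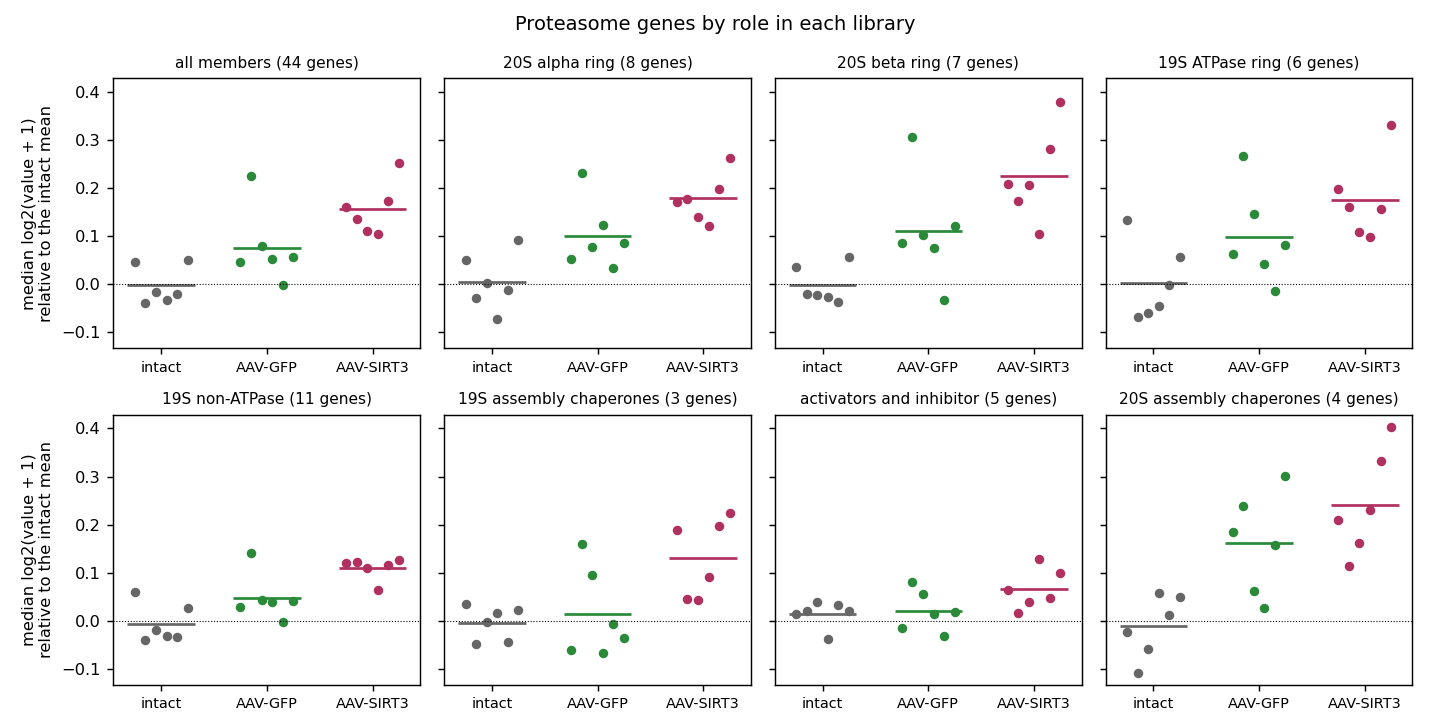
Median log2(value + 1) of the tested genes of each role relative to the intact mean (y axis) in each of the 18 libraries (points, with the group mean as a line), for the 3 groups (x axis). Every AAV-SIRT3 point sits above every intact point except in the ATPase ring panel and the activators and inhibitor panel, the latter with the closest group means, and 1 AAV-GFP library, replicate 2, stands above the others of its group in most panels.

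Both rings of the 20S core took part. In the alpha ring 7 of 8 genes rose, and the median log2 fold change of the ring was 0.18. Psma6, an alpha ring subunit encoded at chr12:55384222-55418454 (GRCm38, + strand), rose most. Psma6 ran from 3857 to 4431 normalised reads in intact libraries (median 4111), 4174 to 4938 in AAV-GFP (4336) and 4620.3 to 5012 in AAV-SIRT3 (4721). The lowest AAV-SIRT3 library was above the highest intact library, with a log2 fold change of 0.22 ± 0.042 (SE, limma adjusted p = 0.00166). The other 6 that rose, Psma1 to Psma5 and Psma7, had log2 fold changes from 0.15 (Psma2) to 0.20 (Psma4). Psma8 was the exception, with 12 to 24 normalised reads in intact libraries, 17.0 to 42.5 in AAV-GFP and 9.68 to 30.5 in AAV-SIRT3. Its difference of -0.16 ± 0.31 (SE, limma adjusted p = 0.756) was smaller than its standard error.

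The beta ring had the largest median of the core, 0.24, and 6 of its 7 tested genes rose. Psmb3 and Psmb2 are structural beta subunits without a proteolytic site, encoded at chr11:97703399-97713500 and chr4:126677630-126709714 (both + strand). Psmb3 ran from 2512 to 2762 normalised reads in intact libraries (median 2674), 2599 to 3369 in AAV-GFP (2987) and 2926 to 3984 in AAV-SIRT3 (3253). Intact and AAV-SIRT3 libraries did not overlap, and Psmb3 rose by 0.31 ± 0.065 (SE, limma adjusted p = 0.00278). Psmb2 ran from 2946 to 3160.3 normalised reads in intact libraries (median 3034), 3214 to 3685 in AAV-GFP (3397) and 3383 to 3962 in AAV-SIRT3 (3621). Again there was no overlap with the intact group, and Psmb2 rose by 0.25 ± 0.042 (SE, limma adjusted p = 0.000761), the smallest adjusted p among these genes. Psmb4, also structural, rose by 0.24 ± 0.066 (SE, limma adjusted p = 0.0133), with 4760.0 to 5272 normalised reads in intact and 5307 to 6883 in AAV-SIRT3 libraries.

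The 3 proteolytic subunits did not all pass the test. Psmb5 ran from 2311 to 2664 normalised reads in intact libraries (median 2379), 2432 to 3006 in AAV-GFP (2617) and 2572 to 3140.4 in AAV-SIRT3 (2853). Psmb5, which carries the chymotrypsin-like site, rose by 0.25 ± 0.056 (SE, limma adjusted p = 0.00392), and 35 of 36 pairs of an AAV-SIRT3 and an intact library showed that direction. Psmb6, with the caspase-like site, rose by 0.20 ± 0.054 (SE, limma adjusted p = 0.0121), and its AAV-SIRT3 libraries (5366 to 6674) all lay above the intact ones (4710.2 to 5289). Psmb7 ran from 2921 to 3427 normalised reads in intact libraries (median 3262), 3050.0 to 4004 in AAV-GFP (3386) and 3353 to 3587 in AAV-SIRT3 (3512). The difference for Psmb7, with the trypsin-like site, was 0.12 ± 0.051 (SE, limma adjusted p = 0.112). It passed without AAV-GFP replicate 2, at an adjusted p of 0.0469. Its exons overlap those of Nek6 on the opposite strand by 405 bp, and the strand setting of the counting is not given in the sources used here.

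**Figure D3:**
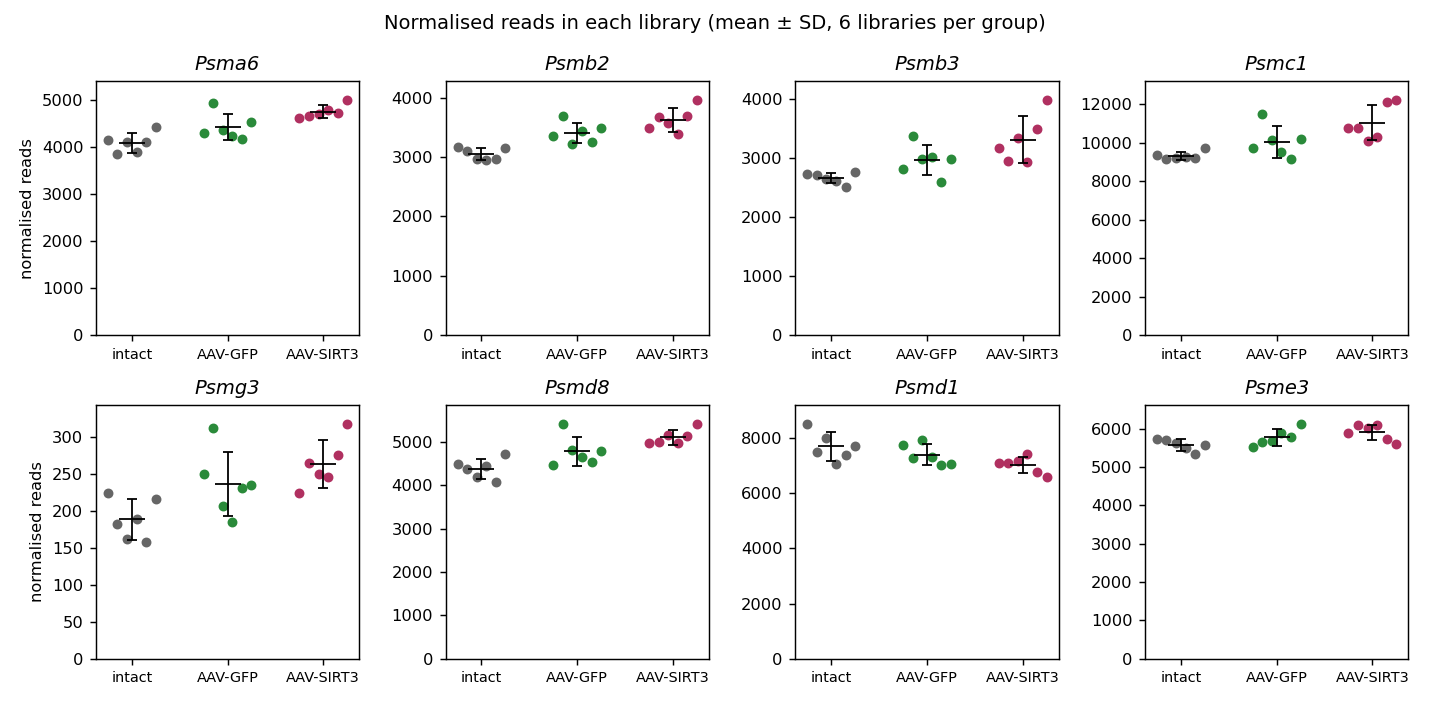
Normalised reads (y axis, from 0) of 8 proteasome genes in each library of the 3 groups (x axis), with mean ± SD, n = 6. AAV-SIRT3 points of Psma6, Psmb2, Psmb3, Psmc1, Psmg3 and Psmd8 lie above all intact points, Psmd1 is lower, and Psme3 overlaps.

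In the 19S particle 10 of 17 tested genes rose, 1 fell, and the median log2 fold change was 0.14 against 0.20 for the 15 tested core genes. This difference between the subcomplexes was not tested. In the ATPase ring Psmc1, Psmc2, Psmc3 and Psmc5 rose, 4 of 6 genes. Psmc1 ran from 9180.1 to 9712 normalised reads in intact libraries (median 9241), 9165 to 11523 in AAV-GFP (9929) and 10072 to 12234 in AAV-SIRT3 (10779). All AAV-SIRT3 libraries of Psmc1 (chr12:100110154-100123405, + strand) were above all intact ones, and it rose by 0.24 ± 0.052 (SE, limma adjusted p = 0.00326). Psmc5 rose by 0.18 ± 0.061 (SE, limma adjusted p = 0.0372), with overlapping groups of 9706 to 11962 and 10986 to 13288 normalised reads. That call was lost without intact replicate 2, 3, 4 or 5 or AAV-SIRT3 replicate 1, 2, 5 or 6, with adjusted p from 0.0516 to 0.0909 and log2 fold changes from 0.15 to 0.19. It was also lost with the length trend removed, at 0.078 (adjusted p = 0.288), with thalamic markers as a covariate, at 0.25 (adjusted p = 0.0578), with quantile scaling and without the filter on low values. Psmc6 had the smallest value of the ring, 0.084 ± 0.044 (SE, limma adjusted p = 0.187).

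Of the 11 non-ATPase genes, 6 rose and Psmd1 fell. Psmd8, a subunit of the lid, rose most. Psmd8 ran from 4077 to 4721 normalised reads in intact libraries (median 4417), 4468 to 5406 in AAV-GFP (4732) and 4977 to 5428 in AAV-SIRT3 (5075). Its AAV-SIRT3 and intact libraries did not overlap, and the log2 fold change was 0.22 ± 0.044 (SE, limma adjusted p = 0.00191). Psmd4, a ubiquitin receptor of the particle, rose by 0.21 ± 0.057 (SE, limma adjusted p = 0.0109), and Psmd3, Psmd7, Psmd12 and Psmd13 by 0.11 to 0.17. Psmd14, the deubiquitinase of the lid, and Psmd2, a scaffold of the base, had values of 0.086 ± 0.046 (SE, limma adjusted p = 0.187) and 0.055 ± 0.039 (SE, limma adjusted p = 0.336).

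Psmd1 encodes the largest scaffold subunit of the base and lies at chr1:86064387-86139151 (GRCm38, + strand). Psmd1 ran from 7056 to 8515 normalised reads in intact libraries (median 7603), 7005 to 7934 in AAV-GFP (7297) and 6580.2 to 7401 in AAV-SIRT3 (7098). The groups overlapped, and in 5 of 36 pairs the AAV-SIRT3 library was higher. The fold change on the log2 scale was -0.13 ± 0.044 (SE, limma adjusted p = 0.039), the only fall among the 44 genes to pass the test. It did not pass without intact replicate 1, 3 or 6 or AAV-SIRT3 replicate 1, 2, 5 or 6, with adjusted p from 0.0525 to 0.0937 and log2 fold changes from -0.13 to -0.10. With thalamic markers as a covariate it stood at -0.070 (adjusted p = 0.469), and with the length trend removed at -0.14 (adjusted p = 0.0352). It did not pass either without the filter on low values. Its exons overlap Gm21972 on the same strand by 301 bp and Htr2b on the opposite strand by 252 bp. Psmd13, a lid subunit, shares 342 bp of exon with Sirt3, which lies on the opposite strand. Psmd13 rose by 0.17 ± 0.055 (SE, limma adjusted p = 0.0302) against intact, while Sirt3 differed by 0.087. The Psmd13 call was lost without intact replicate 1, 2 or 4 or AAV-SIRT3 replicate 3, 5 or 6, with adjusted p from 0.0507 to 0.0663 and log2 fold changes from 0.16 to 0.17. It was also lost with the length trend removed, at 0.11 (adjusted p = 0.0992), with thalamic markers as a covariate, at 0.15 (adjusted p = 0.228), with quantile scaling and without the filter on low values.

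Assembly chaperones gave the largest single rise. Psmg3, which pairs with Psmg4 and helps to build the alpha ring, lies at chr5:139823592-139826885 (GRCm38, - strand). Psmg3 ran from 157 to 224 normalised reads in intact libraries (median 186), 185 to 313 in AAV-GFP (233) and 225 to 318 in AAV-SIRT3 (257). No intact library reached the lowest AAV-SIRT3 library, and Psmg3 rose by 0.48 ± 0.12 (SE, limma adjusted p = 0.00791), at 260.0 normalised reads per kb the least abundant of the genes that rose. It shares 280 bp of exon with Gm26938 on the same strand. Psmg2 also rose, by 0.17 ± 0.057 (SE, limma adjusted p = 0.0332). Psmg4 and Psmg1 did not pass, with 0.25 ± 0.10 (SE, limma adjusted p = 0.078) and 0.15 ± 0.067 (SE, limma adjusted p = 0.106). Among the chaperones of the 19S base, Psmd10 rose by 0.19 ± 0.053 (SE, limma adjusted p = 0.0123), with 815 to 948 normalised reads in intact and 938 to 1047 in AAV-SIRT3 libraries, and Psmd5 differed by -0.012 ± 0.033 (SE, limma adjusted p = 0.826).

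None of the 4 activators nor the inhibitor passed between AAV-SIRT3 and intact mice (limma, 0 of 5 genes), where 21.7% of all tested genes did. At an unadjusted p under 0.05 there were 2 of the 5, against 34.9% of all tested genes. The median log2 fold change of the 5 genes was 0.082. edgeR also called 0 of the 5 and DESeq2 called 1, Psme2. Psme1 and Psme2 form the activator that interferon induces. Psme2 ran from 1023 to 1284 normalised reads in intact libraries (median 1119), 1029 to 1521 in AAV-GFP (1189) and 1158 to 1552 in AAV-SIRT3 (1314). The groups overlapped, with a log2 fold change of 0.22 ± 0.085 (SE, limma adjusted p = 0.0631), and Psme2 did pass without intact replicate 6, AAV-GFP replicate 2 or AAV-SIRT3 replicate 3. Psme1 differed by 0.11 ± 0.065 (SE, limma adjusted p = 0.221), with the sign turned to -0.0048 with the length trend removed, and Psme3, the nuclear activator, by 0.082 ± 0.033 (SE, limma adjusted p = 0.0836). Psme4, an activator linked to the turnover of acetylated histones, was at 3016 to 3393 normalised reads in intact and 3140.3 to 3432 in AAV-SIRT3 libraries, a difference of 0.012 ± 0.045 (SE, limma adjusted p = 0.876). With the length trend removed, however, Psme4 was called higher, the only 1 of these 5 genes called in that fit. The inhibitor Psmf1 stood at 2034 to 2249.7 and 1961 to 2299.9, a difference of 0.0022 ± 0.051 (SE, limma adjusted p = 0.981) whose sign changes with TMM or quantile scaling.

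Neither comparison with the virus control gave a call among these genes. Between AAV-SIRT3 and AAV-GFP mice 0 of 44 genes passed (limma adjusted p under 0.05), where 0.113% of all tested genes did, 0.036% higher and 0.0771% lower, and edgeR and DESeq2 also called 0. In 0 of 44 genes the groups did not overlap, where 0.37% of all tested genes were higher and 0.381% lower without overlap. At an unadjusted p under 0.05 there were 16 genes, against 15.2% of all tested genes. The median was 0.080, beside -0.0041 over all tested genes, and 41 of 44 values were positive, against 48.6% of all tested genes. The largest positive value was that of Psmc5, 0.17 ± 0.061 (SE, limma adjusted p = 0.204). Its range was 9505 to 12529.7 normalised reads in AAV-GFP libraries (median 10423) and 10986 to 13288 in AAV-SIRT3 (median 11893), which overlap. The largest negative value was that of Psma8, -0.72 ± 0.31 (SE, limma adjusted p = 0.287). Without AAV-GFP replicate 2, 6 genes rose, namely Psma2, Psma6, Psmb1, Psmb4, Psmc1 and Psmc5, and 2.36% of all tested genes were called higher.

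Between AAV-GFP and intact mice 0 of 44 genes passed (limma), where 1.84% of all tested genes did, 0.823% higher and 1.02% lower, and 11 had an unadjusted p under 0.05, against 19.1% of all tested genes. The median was 0.078, beside 0.00074 over all tested genes, and 41 of 44 values were positive, against 50.2% of all tested genes. Psmb2 came nearest the threshold, with a log2 fold change of 0.16 ± 0.042 (SE, limma adjusted p = 0.0502). It was also the 1 gene of 44 whose groups did not overlap (2946 to 3160.3 and 3214 to 3685 normalised reads), where 0.874% of all tested genes were higher and 0.988% lower without overlap. edgeR and DESeq2 each called Psmb2 alone, and so did limma without intact replicate 6, AAV-GFP replicate 1 or AAV-SIRT3 replicate 4 or 6. The largest positive value was that of Psma8, 0.56 ± 0.31 (SE, limma adjusted p = 0.348), and the largest negative that of Psmf1, -0.078 ± 0.051 (SE, limma adjusted p = 0.42). The 3 comparisons share libraries, so their values are not independent of each other.

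The immune subunits Psmb8, Psmb9 and Psmb10 replace Psmb5, Psmb6 and Psmb7 in the core when interferon signalling is active. All 3 rose between AAV-SIRT3 and intact mice, and 0 of 3 passed between AAV-SIRT3 and AAV-GFP (1 at an unadjusted p under 0.05) or between AAV-GFP and intact (0 unadjusted). Psmb8 ran from 68.0 to 108 normalised reads in intact libraries (median 94.3), 86.4 to 134 in AAV-GFP (111) and 107 to 252 in AAV-SIRT3 (131). Psmb9 ran from 36.0 to 65.0 normalised reads in intact libraries (median 50.6), 56.7 to 66.6 in AAV-GFP (63.7) and 56.2 to 190.2 in AAV-SIRT3 (66.9). Psmb10 ran from 1057 to 1179 normalised reads in intact libraries (median 1135), 1062 to 1330.4 in AAV-GFP (1178) and 1222 to 1902 in AAV-SIRT3 (1360.0). AAV-SIRT3 replicate 6 was the highest library for each of the 3 genes, and only Psmb10 had no overlap between AAV-SIRT3 and intact libraries. The log2 fold changes were 0.65 ± 0.17 (SE, limma adjusted p = 0.0109) for Psmb8, 0.72 ± 0.24 (SE, limma adjusted p = 0.0336) for Psmb9 and 0.34 ± 0.080 (SE, limma adjusted p = 0.00552) for Psmb10. Without AAV-SIRT3 replicate 6, Psmb8 stood at 0.48 (adjusted p = 0.0231), Psmb9 at 0.48 (adjusted p = 0.0781) and Psmb10 at 0.25 (adjusted p = 0.00775). The Psmb9 call was also lost without intact replicate 3, 4 or 5 or AAV-SIRT3 replicate 1, with adjusted p from 0.0614 to 0.0794 and log2 fold changes from 0.48 to 0.70 over these and replicate 6. With the length trend removed 2 of the 3 were called and Psmb9 was at 0.62 (adjusted p = 0.0704). With thalamic markers as a covariate only Psmb8 was called, at 0.97 (adjusted p = 0.0172), while Psmb9 was at 0.90 (adjusted p = 0.086) and Psmb10 at 0.34 (adjusted p = 0.0574). The Psmb9 call was lost as well without the filter on low values and with these 2 groups alone in the fit. Psmb9 shares 212 bp of exon with Tap1, and Psmb8 498 bp with Gm20496, each on the opposite strand.

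The balance of immune and constitutive transcripts was read as the ratio of each immune subunit to its constitutive partner within a library. These are RNA ratios over all cells of the tissue, and the protein make-up of the core was not measured. They were compared by exact two-sided permutation tests of 6 against 6 libraries and adjusted over 9 tests. The smallest exact p that this design allows is 0.00216. The Psmb10 to Psmb7 ratio was 33.9% to 36.2% in intact, 32.3% to 39.2% for AAV-GFP and 35.2% to 53.0% for AAV-SIRT3 libraries. AAV-SIRT3 libraries were mostly higher, with 33 of 36 pairs above intact, but the ratio did not pass after adjustment against intact (exact p = 0.00866, adjusted p = 0.0779) or against AAV-GFP (exact p = 0.0216, adjusted p = 0.0974). It passed against intact without AAV-SIRT3 replicate 4, at a log2 difference of 0.26, and against AAV-GFP once replicate 6 of AAV-GFP or replicate 4 of AAV-SIRT3 was left out, both at 0.26. For this ratio AAV-SIRT3 replicate 4 was the lowest of its group, at 35.2%, and AAV-GFP replicate 6 the highest of its group, at 39.2%. AAV-SIRT3 replicate 6, at 53.0%, stood apart from the next library of its group, at 41.8%. The Psmb8 to Psmb5 ratio was 3.75 ± 0.649% in intact, 4.26 ± 0.712% for AAV-GFP and 5.09 ± 1.59% for AAV-SIRT3 libraries, and the Psmb9 to Psmb6 ratio 1.00 ± 0.191%, 1.17 ± 0.120% and 1.55 ± 0.746% (SD, n = 6). Neither passed in any comparison (adjusted p from 0.175 to 0.404). Beside these values, 11 of 16 interferon response genes were higher in AAV-SIRT3 than in intact mice, with a summed level of 5199.9 to 5980.2 in intact libraries, 4914 to 6118 in AAV-GFP and 6471 to 14494 in AAV-SIRT3. Between AAV-SIRT3 and AAV-GFP mice 2 of the 16 interferon response genes were called higher (limma), where 0.036% of all tested genes were. There 13 had an unadjusted p under 0.05, against 15.2% of all tested genes, and the median log2 fold change was 0.84. Between AAV-GFP and intact mice 0 of the 16 were called, and the median was 0.037. Of 12 microglial markers 8 were higher in AAV-SIRT3 than in intact mice, and 7 in AAV-GFP than in intact mice. The median log2 fold changes of the list were 0.38 and 0.48. Between AAV-SIRT3 and AAV-GFP mice 0 of the 12 were called (limma), with a median of -0.082. The summed level of the microglial markers was 18482 to 20437 in intact libraries, 20680.4 to 26678 in AAV-GFP and 21464 to 26769 in AAV-SIRT3. T cell markers summed to 273 to 362 in intact libraries, 319 to 465 in AAV-GFP and 295 to 450.4 in AAV-SIRT3, and 0 of the 5 that could be tested passed. The part of interferon response and of these cells in the immune subunit values was not tested.

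**Figure D4:**
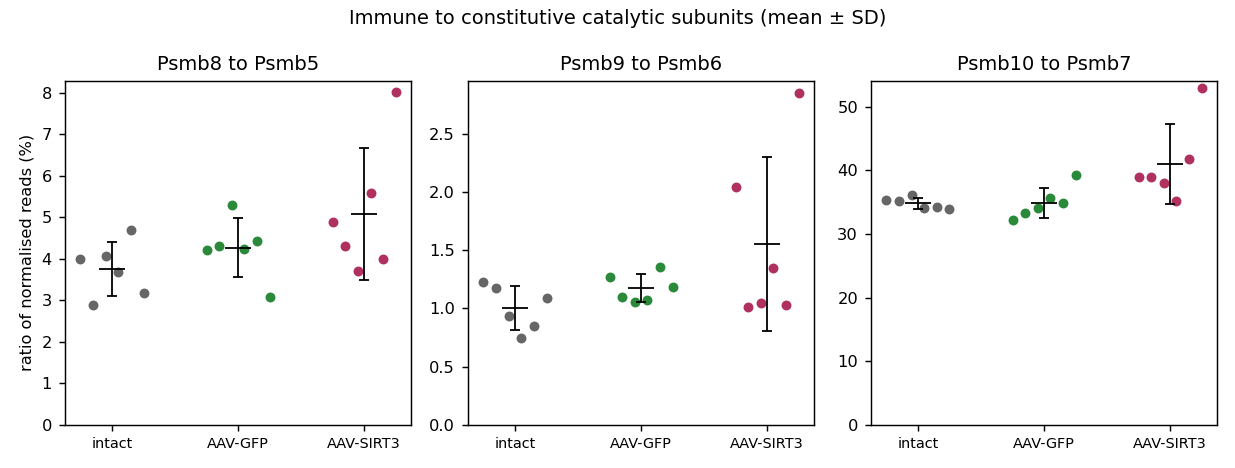
Ratio of normalised reads of each immune subunit to its constitutive partner, in percent (y axis, from 0), in each library of the 3 groups (x axis), with mean ± SD, n = 6. AAV-SIRT3 replicate 6 is the highest point of each panel, at 53.0% for Psmb10 to Psmb7.

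Genes around the proteasome were divided. Of 7 partners, 4 rose and 1 fell against intact mice (limma, log2 fold change ± SE in parentheses). The 4 were Sem1, a small 19S subunit (0.30 ± 0.071, adjusted p = 0.00499), Pomp, which matures the core (0.29 ± 0.062, adjusted p = 0.00316), Akirin2, which brings proteasomes into the nucleus (0.24 ± 0.061, adjusted p = 0.00863), and Uchl5, a deubiquitinase of the 19S particle (0.21 ± 0.050, adjusted p = 0.00613). Sem1 stood at 2178 to 2459 normalised reads in intact and 2503 to 3398 in AAV-SIRT3 libraries, without overlap. Ecpas, an adaptor that tethers the core to the 19S particle, fell by 0.13 ± 0.043 on the log2 scale (SE, limma adjusted p = 0.0337). Its call was lost without intact replicate 1 or 3 or AAV-SIRT3 replicate 2, 5 or 6, with adjusted p from 0.0566 to 0.0845 and log2 fold changes from -0.13 to -0.11. With thalamic markers as a covariate 0 of the 5 calls held. Sem1 was then at 0.30 (adjusted p = 0.0564), Pomp at 0.26 (adjusted p = 0.062), Akirin2 at 0.23 (adjusted p = 0.0822), Uchl5 at 0.21 (adjusted p = 0.0635) and Ecpas at -0.078 (adjusted p = 0.405). With the length trend removed 3 rose and 0 fell, with Akirin2 at 0.14 (adjusted p = 0.0862) and Ecpas at -0.023 (adjusted p = 0.663), and Ecpas did not pass without the filter on low values either.

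Nfe2l1 is the transcription factor that raises proteasome genes when proteasome activity is short, Ddi2 and Ngly1 process it, and Nfe2l2 is its relative in the oxidative stress response. None of these 4 was called higher in any of the 3 comparisons (limma). In AAV-GFP against intact mice Nfe2l2 differed by 0.22 ± 0.070 (SE, limma adjusted p = 0.0955). Between AAV-SIRT3 and intact mice Nfe2l2 differed by 0.077 ± 0.070 (SE, limma adjusted p = 0.461). Nfe2l1 ran from 19522 to 22025 normalised reads in intact libraries (median 20115), 18742 to 20409 in AAV-GFP (19338) and 19257 to 21143 in AAV-SIRT3 (20081). The groups overlapped, with a difference of -0.014 ± 0.035 (SE, limma adjusted p = 0.816) against intact. Ddi2 fell by 0.15 ± 0.043 on the log2 scale (SE, limma adjusted p = 0.0203), a call lost without AAV-SIRT3 replicate 6 (value -0.12, adjusted p = 0.0521). The call was also lost with thalamic markers as a covariate, at -0.18 (adjusted p = 0.0616), and with the length trend removed the sign turned, at 0.014 (adjusted p = 0.842). Of the 4 ubiquitin genes 1 rose in limma, Rps27a (0.32 ± 0.061, adjusted p = 0.00159), which encodes ubiquitin fused to a ribosomal protein. Its AAV-SIRT3 libraries (11493 to 14717) lay above the intact ones (9486 to 10916). Of 11 genes for ubiquitin activation, shuttling and the segregase Vcp, 0 passed (limma), 1 had an unadjusted p under 0.05, and the median was 0.040.

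Fold change moved with transcript length, in these genes and in the transcriptome. The median transcript of the 44 genes was 1561 bp, against 2820 bp over all tested genes. Between AAV-SIRT3 and intact mice Spearman's rho of fold change with length was -0.69 over the 44 genes and -0.27 over the 18824 tested genes with a length, as descriptions across genes that share libraries. For AAV-GFP against intact rho was -0.66 and -0.20, and for AAV-SIRT3 against AAV-GFP -0.45 and -0.19. Within single libraries, rho of the deviation from the mean of all libraries with length was 0.094 to 0.20 in intact, -0.34 to 0.13 for AAV-GFP and -0.33 to -0.011 for AAV-SIRT3 libraries, lowest in AAV-GFP replicate 2 and AAV-SIRT3 replicate 6. These are also the libraries with the highest proteasome medians of their groups. With tested genes split by length into 10 equal bins, in the shortest bin (up to 962 bp) the median log2 fold change of all genes was 0.093 and 17.8% were called higher, while 6 of the 8 proteasome genes there rose, with a median of 0.25. In the next bin (963 to 1468 bp) the values were 0.11 and 22.2%, and 8 of 13 proteasome genes rose, with a median of 0.17.

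**Figure D5:**
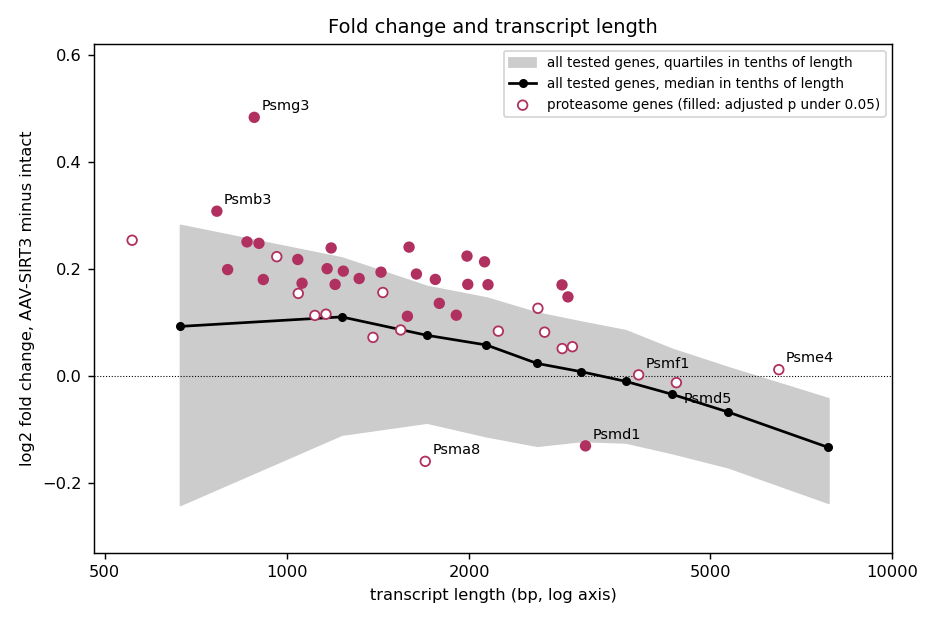
Log2 fold change between AAV-SIRT3 and intact mice (y axis) against transcript length (x axis, log scale) for the 44 tested proteasome genes (points, filled where the adjusted p was under 0.05), with the median and quartiles of all tested genes in 10 bins of length (black line and grey band). Most proteasome genes lie above the black line, highest among the shorter transcripts, and Psmd1 and Psma8 lie well below it.

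With the length trend of each library removed, 11 proteasome genes rose and 1 fell between AAV-SIRT3 and intact mice, where 8.69% of tested genes were called higher, and the median was 0.082. The 11 were Psma2, Psma3, Psmb1, Psmb2, Psmb3, Psmc1, Psmc3, Psmd4, Psmd8, Psme4 and Psmg3, and Psmd1 fell. By role, 5 of 15 core genes and 4 of 17 genes of the 19S particle rose. Psmb3 then stood at 0.18 (adjusted p = 0.0155, limma) and Psmb2 at 0.12 (0.0157). Psmb6, Psma6 and Psmd10 did not pass, at 0.068, 0.095 and 0.099. With a score of the thalamic markers as a covariate, 10 genes rose and 0 fell, where 3.46% of all tested genes were called higher, and the median was 0.17. By role these were 7 of 15 core genes, 2 of 17 genes of the 19S particle and 1 chaperone. These 10 were Psma1, Psma2, Psma6, Psma7, Psmb2, Psmb3, Psmb6, Psmc1, Psmd4 and Psmd10. Psma2, Psmb2, Psmb3, Psmc1 and Psmd4 were called in both of these fits. The thalamic score, on the log2 scale, ran from 11.12 to 12.28 in intact libraries and from 12.06 to 12.45 in AAV-SIRT3 libraries. The score thus differed with the group, and the part of this in the lower count of the covariate fit was not tested. The part of length or of dissection in the remaining calls was not tested.

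Copies of these genes took few reads. Processed copies listed in the table reached at most 7.62 normalised reads for Psma5-ps and 6.23 for Psmb7-ps2, Psme2b, a copy of Psme2, reached 20.8, and Psmb5-ps was listed at 0. How reads that fit a gene and its copy equally well were counted is not given in the sources used here.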

How the data were processed

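RNA-seq of mouse substantia nigra was used, from 18 libraries (stranded poly-A, paired reads, per the labels' protocols). The deposited signal values are read counts that the authors divided by a size factor per library, since multiplying by 1 factor per library gave whole reads in all 18 libraries, for 100% of values above 0; the largest deviation was 4.66e-09 of a read. HISAT2 2.1.0, DESeq2 1.34.0 and mm10 are named in the submitters' processing notes, without roles. The annotation and the strand setting of counting are not given in the sources used here.

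Genes with a value of 10 or more in 6 libraries were kept (19443 of 55270). The log2(value + 1) values of the 3 groups entered a single limma 3.58.1 fit in R 4.3.3 with a mean-variance trend, Benjamini-Hochberg adjustment over all tested genes and a threshold of 0.05. Fold changes on this scale understate those of low genes. Ratios of immune subunits used exact permutation tests. Alternatives were edgeR 4.0.16 and DESeq2 1.42.0 on recovered reads, other scalings, pseudocounts and filters, 2 groups only, the replicate number as a block, a length correction, a covariate of thalamic markers, and each library left out. The length correction removed a lowess curve of log2 value against transcript length (GENCODE M21, 18824 tested genes with a length) from each library. Only the limma steps were tested on simulated counts, with changes planted in some genes.

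Libraries held 47182529 to 64728587 reads. Replicates of a group differed by 8.26 to 37.2 times the counting noise (chi-square per degree of freedom), so none was taken for a repeat deposit. Same-numbered libraries of different groups had correlations of deviations from -0.10 to 0.18, so the numbers were not taken to pair the mice.

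The genes, lists and tests were chosen with earlier results of these data known. For each comparison the genes named were the called ones with the 6 largest rises and falls, or the single largest of each where none was called, the largest and smallest change of each role, the 3 highest and lowest levels per kb, the catalytic subunits, activators, inhibitor and Psmd13, Sirt3, the immune subunits, Nfe2l1, Pomp and the called genes of the other lists. Other genes named for their role or for a call that depends on a library were chosen after their values were seen. Promoters came from RefSeq (GRCm38.p6), 250 bases upstream of each start.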

Additional observations from a re-analysis of the deposited data

Results flagged for a closer look

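Of 96 groups of 6 values examined, 8 held a library whose gap to its nearest neighbour was over 0.625 of the range of the group, where chance gives about 4.8. AAV-SIRT3 replicate 6 stood apart for Psmb10, at 1902 normalised reads with the next library at 1469, for Psmb8, at 252.0 with the next at 144, and for the Psmb10 to Psmb7 ratio, at 53.0% with the next at 41.8%. AAV-GFP replicate 2 stood apart for Psmb4, at 6654 normalised reads with the next at 5438, for the share of reads on proteasome genes, at 0.387% with the next at 0.344%, and for the median of the 44 genes, at 0.22 with the next at 0.079. Psmc1 in intact replicate 6 was at 9712 normalised reads with the next at 9378. Psmb11 in AAV-SIRT3 replicate 1 was at 6.67 normalised reads with the next at 2.25, both too low for the test.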

How the results depend on the processing

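Of 53 single-gene results, 22 kept their direction and their call under every alternative run, 18 lost a call, 8 gained one and 7 changed sign under at least 1 of them. The count of proteasome genes called between AAV-SIRT3 and AAV-GFP mice ran from 0 to 6 as each library was left out. It was 6 only without AAV-GFP replicate 2, where 2.36% of all tested genes were called higher, and 0 without any other library. Between AAV-GFP and intact mice it was 1, Psmb2 each time, with a pseudocount of 10, a mean of at least 50, edgeR, DESeq2, the replicate block or an adjusted p under 0.1, and 0 to 1 as each library was left out. Between AAV-SIRT3 and intact mice it was 20 to 29 as each library was left out. With all libraries and neither correction 11.3% of all tested genes were called higher. With length removed it was 12, of which 11 higher (median 0.082), where 8.69% of tested genes were called higher. With the thalamic covariate it was 10, all higher (median 0.17), where 3.46% of all tested genes were called higher. The cause was not tested. With the replicate number as a block the counts were 0 for AAV-SIRT3 against AAV-GFP, 1 and 26, and 1 of 18 libraries correlated best with its own number. Signs changed for 7 genes, among them Ddi2, which was called lower at -0.15; the cause was not tested. Between AAV-SIRT3 and intact mice Psmf1 was at -0.0054 with TMM, -0.016 with quantile scaling and -0.017 to 0.029 without single libraries. Psme4 was at -0.0068 with quantile scaling and -0.013 to 0.027 without single libraries, and it was called higher with length removed. With length removed, Psme1 was at -0.0048, Sirt3 at -0.0061, Ddi2 at 0.014, Psmd5 at 0.025 and Nfe2l1 at 0.033. With the thalamic covariate Psmd5 was at 0.0060 and Nfe2l1 at 0.011, and without single libraries they ran from -0.023 to 0.0056 and from -0.028 to 0.0090. The log2 ratio of Psmb10 to Psmb7 ran, without single libraries, from 0.15 to 0.26 against AAV-GFP, from 0.14 to 0.26 against intact, and from -0.036 to 0.020 for AAV-GFP against intact. Genes near the threshold and low genes such as Psma8 are limited by 6 libraries a group.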
